A study of Mus musculus with 20 samples.

Results

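The hypoxia response genes described here are 10 genes known to be induced when oxygen is low: Vegfa, Adm, Car9, Car12, Pdk1, Bnip3, Ndrg1, Ankrd37, Egln3 and Kdm3a. They were taken by name from a deposited table of 34234 genes, and all 10 were found in it. RNA was sequenced in bulk from kidney tumours that grew in mice from the cell line MSRT1, which the labels give as renal medullary carcinoma. The 20 mice gave 1 library each and fall into 4 groups of 5. Veh_IgG mice had vehicle and a control antibody (IgG). GYY_IgG mice had GYY4137, a slow-releasing donor of hydrogen sulfide, with the control antibody. Veh_PD1 mice had vehicle with an antibody against PD1, a checkpoint receptor of T cells. GYY_PD1 mice had both agents and are called the combination. All groups share the same cell line and tissue, the line is a single line, and the labels used here give no strain, age, dose or time of sampling.

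Cells read oxygen through prolyl hydroxylases, enzymes that use it to mark the alpha subunits of hypoxia-inducible factor (HIF) for binding by the VHL protein and for destruction. When oxygen falls, HIF-alpha persists, pairs with ARNT and binds short DNA motifs near its target genes. The targets bring in vessels, shift fuel use from mitochondria to glycolysis, control acidity and restrain the response itself. In kidney cancer the pathway is best known for loss of VHL in the clear cell type. HIF-alpha is regulated mainly through protein stability, so that transcript levels of its subunits are no measure of its activity.

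Values are TPM, the length-corrected share of a gene among all transcripts of a library, deposited as log2. Comparisons between groups used each log2 value minus the median log2 value of the 15422 tested genes in its own library, called the value relative to the library median. Genes were tested if they reached 1 TPM in at least 5 libraries. Of the 10 hypoxia response genes 9 did so, and Car9 did not. A difference on this scale tells how a gene stood against the bulk of other genes. In bulk tumours, fewer cells of a type and less RNA per cell cannot be told apart.

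The libraries differed in makeup. Gene models that resemble major satellite, a tandem repeat of mouse pericentromeric DNA, took between 1.62% and 83.4% of TPM in the 20 libraries. The share averaged 7.09% ± 4.17 (SD, n = 5) for Veh_IgG and 51.8% ± 21.2 for the combination. GYY_IgG and Veh_PD1 lay between, at 25.2% ± 22.6 and 32.4% ± 24.4. Replicates 1 and 4 of the combination stood apart: 8198 and 6659 genes reached 1 TPM in them, against 11517 to 15162 in the other 18. Their median Spearman correlation with the other libraries over the tested genes was 0.389 and 0.803, against 0.854 to 0.929 in the other 18. Of the markers listed for the labelled tumour, Pax8 (48.1 ± 8.93 TPM in Veh_IgG) and Krt8 (244 ± 108 TPM) were present. Smarcb1, the chromatin remodelling subunit typically lost in renal medullary carcinoma, was at 30.1 ± 10.3 TPM in Veh_IgG, so its transcript was not absent from these samples. Transcripts of host cells and of tumour cells cannot be told apart in them.

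The core of the HIF binding motif is ACGTG or GCGTG. It was searched in the 250 bases before the RefSeq start of each gene on both strands, where one CACGTG, the E-box of other factors, counts as a match on each strand. RefSeq promoters on GRCm38.p6, the build of the files, were matched for 9 of the 10 genes. The first promoter held a match for 7 of 9 genes, and 38.6% of all 32851 promoters hold one. Bnip3 had 5 matches and Ankrd37 had 4, while 6.58% of all promoters have 3 or more. The RefSeq start of Ankrd37 is 5857 bases from its GENCODE M21 start, so its window lies inside the GENCODE gene span. Adm had 2 matches, Car9, Egln3, Pdk1 and Kdm3a had 1 each, and Vegfa and Car12 had none in this window of their first promoter. RefSeq gives more than 1 start for Vegfa, Pdk1 and Kdm3a: the second promoter of Vegfa held 2 matches, 218 and 211 bases before its start, and the further promoters of Pdk1 and Kdm3a held 0. The stretches below are shown because Bnip3, Pdk1 and Adm are among the members whose transcripts varied together from tumour to tumour. Each is 230 bases, from 250 to 21 bases before the start, read 5′ to 3′ on the strand of the gene, with the matches in capitals. Bnip3 lies at chr7:138909527-138909756 on the minus strand, Pdk1 at chr2:71872974-71873203 and Adm at chr7:110627407-110627636, both on the plus strand.
Bnip3: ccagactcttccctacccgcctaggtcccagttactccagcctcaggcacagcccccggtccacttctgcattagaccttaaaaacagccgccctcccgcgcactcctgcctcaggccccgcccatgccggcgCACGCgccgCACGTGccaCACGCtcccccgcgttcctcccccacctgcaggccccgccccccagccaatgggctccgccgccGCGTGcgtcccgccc
Pdk1: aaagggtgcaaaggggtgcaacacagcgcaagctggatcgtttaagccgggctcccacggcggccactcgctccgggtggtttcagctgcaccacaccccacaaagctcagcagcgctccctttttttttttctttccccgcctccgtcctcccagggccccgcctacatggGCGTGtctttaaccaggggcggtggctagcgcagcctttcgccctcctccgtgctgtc
Adm: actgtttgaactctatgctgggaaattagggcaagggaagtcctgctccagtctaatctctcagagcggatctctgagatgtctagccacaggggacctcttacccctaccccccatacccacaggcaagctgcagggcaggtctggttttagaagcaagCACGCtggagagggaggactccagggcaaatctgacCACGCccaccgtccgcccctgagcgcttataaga
In Bnip3 the capitals mark a cluster 117 to 99 bases before the start and a single match 35 bases before it. The matches of Adm lay 90 and 54 bases before the start, and that of Pdk1 lay 78 bases before it. A match describes letters in a window and does not show that HIF bound there.

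The genes lie on 9 chromosomes, all positions from GENCODE M21 on mm10. Vegfa is on chromosome 17 (46016993 to 46032369), Adm on 7 (110627661 to 110629820) and Bnip3 also on 7 (138890836 to 138909519). Car9 is on chromosome 4 (43506966 to 43513729) and Car12 on 9 (66713686 to 66766845). Pdk1 is on chromosome 2 (71873224 to 71903858), Ndrg1 on 15 (66929318 to 66969640) and Ankrd37 on 8 (45996902 to 46005707). Egln3 is on chromosome 12 (54178981 to 54203860) and Kdm3a on 6 (71588972 to 71632990).

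In Veh_IgG tumours the transcripts spanned a wide range of levels. Ndrg1, a stress-responsive gene linked to differentiation and the most abundant member, was at 906 ± 179 TPM (SD, n = 5). Bnip3, which directs mitochondria to mitophagy, followed at 204 ± 101 TPM, and Vegfa, the main growth factor of vessels, at 90.1 ± 10.4 TPM. Adm, a vasodilator peptide, was at 28.9 ± 7.42 TPM. Pdk1, the kinase that shuts pyruvate dehydrogenase, was at 17.5 ± 4.78 TPM and Car12, a membrane carbonic anhydrase, at 17.4 ± 3.85 TPM. Kdm3a, a histone demethylase, was at 16.2 ± 4.09 TPM, and Ankrd37, an ankyrin repeat protein, at 10.5 ± 7.76 TPM. Egln3, an oxygen-sensing prolyl hydroxylase that HIF itself induces, was at only 1.85 ± 0.982 TPM. Neighbours in this order overlapped from Adm through Ankrd37, so those 5 genes cannot be ranked, while Ndrg1, Bnip3, Vegfa, the group of 5, Egln3 and Car9 each stood apart in their ranges. The plot of TPM in each tumour shows the same order in the 3 treated groups for Ndrg1, Bnip3 and Vegfa by their means.

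**Figure D1:**
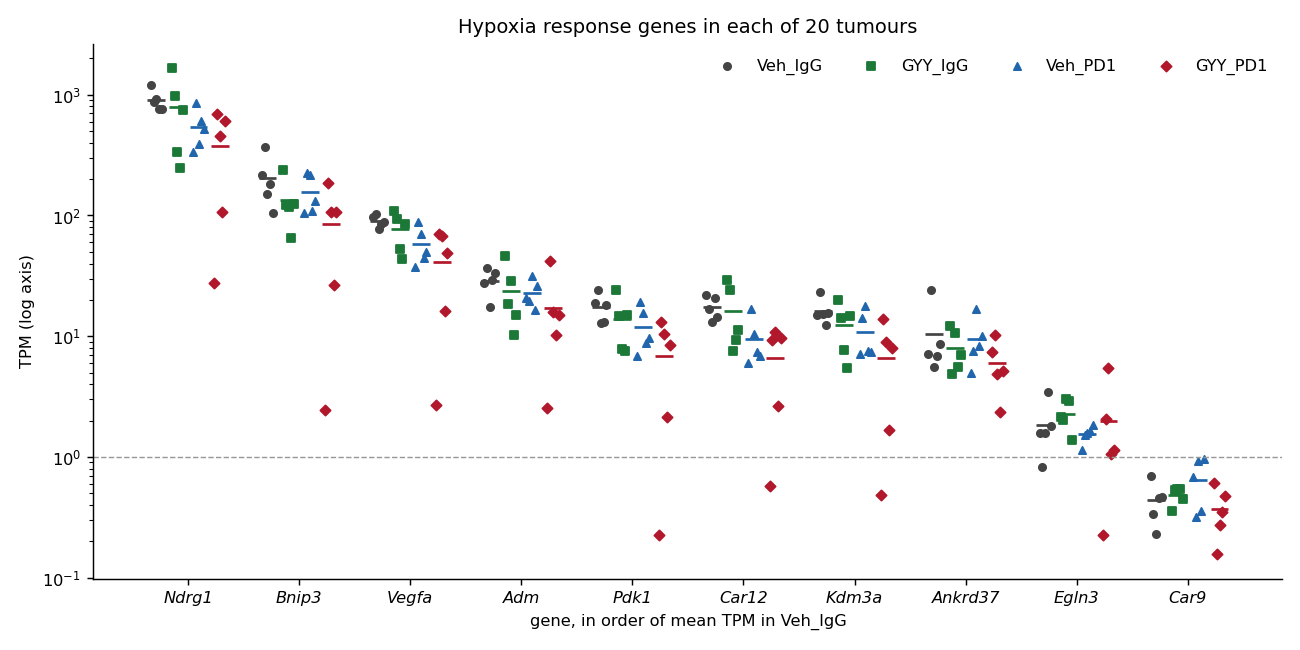
TPM on a log axis of the 10 genes in every tumour, with 1 point per library, a short bar at the mean of each group of 5 and a dashed line at 1 TPM. Ndrg1 was at 906 TPM and Car9 at 0.437 TPM on average in Veh_IgG; the 2 lowest points of the combination in most genes belong to replicates 1 and 4.

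Car9 and Car12, a pair of carbonic anhydrases that sit on the tumour cell surface and set the pH around it, behaved differently in level. Car9, a widely used tissue marker of hypoxia and of clear cell kidney cancer, did not reach 1 TPM in any of the 20 libraries. Its TPM in Veh_IgG were 0.694, 0.335, 0.232, 0.460 and 0.463, and in the combination 0.610, 0.156, 0.274, 0.351 and 0.477. The ranges overlapped. As a reference for background, the mean over 1101 olfactory and vomeronasal receptor genes was 0.0163 to 0.120 TPM per library, so that Car9 was low but above that mean in each group's average. Car12 was at 21.9, 16.8, 13.0, 20.7 and 14.5 TPM in the 5 Veh_IgG tumours. Car9 overlaps the antisense gene Gm12454 in gene span, and as Nextera libraries do not mark the strand, reads from any shared stretch cannot be told apart. Whether their exons overlap was not examined.

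No member passed the threshold in any of the 6 comparisons (limma, Benjamini-Hochberg adjusted over 15422 genes, threshold 0.05). The share of all tested genes called was 0% in 5 of these comparisons and 0.00648% (1 gene) for the combination against Veh_PD1. For no member were the 5 values of one group all above or all below those of the other in any of the 5 comparisons between groups. Among all tested genes this held for 0.869% in GYY_IgG and 0.791% in Veh_PD1 against Veh_IgG, and for 3.26%, 1.06% and 0.96% in the combination against Veh_IgG, Veh_PD1 and GYY_IgG. At an unadjusted p under 0.05, limma counted 1 member in the combination against Veh_IgG and 0 in the other comparisons. The same count over all tested genes was 178 (1.15%) for GYY_IgG and 273 (1.77%) for Veh_PD1 against Veh_IgG, and 2605 (16.9%) for the combination against Veh_IgG. It was 1988 (12.9%) for the combination against Veh_PD1, 1507 (9.77%) against GYY_IgG and 376 (2.44%) for the interaction. A p that missed the threshold does not show that the groups were alike: the standard errors of the members' differences between groups ran from 0.27 (Kdm3a) to 0.65 (Ankrd37) on the log2 scale.

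With GYY4137 alone, no member was called. The median member difference of GYY_IgG from Veh_IgG was -0.04 log2 relative to the library median, and the median of all tested genes was -0.01. Of the 9 tested members 4 had a higher mean and 5 a lower one, and 47.9% of all tested genes had a higher one. The number with a higher mean was 2 without replicate 3 of GYY_IgG and 8 without replicate 2 of Veh_IgG. The differences ran from -0.22 (SE 0.49) for Bnip3 to 0.79 (SE 0.60) for Egln3, each with an adjusted p of 1.00 by limma. Egln3 was 0.44 without replicate 3 of GYY_IgG. Vegfa differed by 0.08 (SE 0.29), and by -0.042 without that replicate. The Vegfa levels were 97.1, 104, 76.9, 85.4 and 87.7 TPM in Veh_IgG and 108, 94.0, 53.3, 43.4 and 85.3 TPM in GYY_IgG. The 2 lowest of these, replicates 3 and 4 of GYY_IgG, come from the libraries of that group with the largest satellite-like share, 54.9% and 44.1%, and relative to the library median they were the highest of the group at 3.97 and 3.68.

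With anti-PD1 alone, 8 of 9 members had a higher mean than in Veh_IgG, where 43.5% of all tested genes did, but none passed the test. The median member difference of Veh_PD1 from Veh_IgG was 0.26 log2 relative to the library median, and that of all tested genes was -0.04. Ankrd37 differed most, by 0.84 (SE 0.65), then Egln3 by 0.74 (SE 0.60), Bnip3 by 0.54 (SE 0.49) and Adm by 0.53 (SE 0.48). Each of these had an adjusted p of 1.00 by limma. Car12 was the only tested member with a lower mean, at -0.09 (SE 0.29). Bnip3 was 0.30 without replicate 5 of Veh_IgG and 0.83 without its replicate 2, and Adm was 0.31 and 0.81 without replicates 5 and 2 of Veh_PD1. In the same comparison all 5 tested neutrophil markers (median 2.06) and all 13 satellite-like models (median 2.64) had a higher mean, with 0 called by limma and 0 and 2 at an unadjusted p under 0.05; their part in the members' values was not tested. Bnip3 relative to the library median was 4.30, 5.64, 4.22, 4.54 and 3.51 in Veh_IgG and 5.17, 4.66, 4.86, 4.74 and 5.47 in Veh_PD1. Replicate 2 of Veh_IgG exceeded every Veh_PD1 tumour, so the groups overlapped. The comparisons with Veh_IgG share those 5 libraries and are not independent of each other.

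The combination against Veh_IgG gave the widest spread between members. Among the 9 tested members Egln3 had the largest difference, 1.51 log2 relative to the library median (SE 0.60, fold 2.84, unadjusted p = 0.0213, limma adjusted p = 0.258). Its values were -2.78, -3.15, -2.36, -1.17 and -2.35 in Veh_IgG and -1.38, -1.47, 0.07, 0.43 and -1.92 in the combination. Replicate 4 of Veh_IgG lay above 3 combination tumours, so the groups overlapped. In TPM the means were 1.85 ± 0.982 and 2.00 ± 2.06, closer to each other than their SD. Car9, which is under the level filter, differed by 1.64 (SE 0.85, limma adjusted p = 0.242) in a fit without that filter. Its values in replicates 1 to 5 of the combination were 0.05, -5.20, -4.26, -1.17 and -3.18, so replicate 1 stood highest. In TPM the Car9 means were 0.437 ± 0.173 in Veh_IgG and 0.374 ± 0.176 in the combination. Ankrd37 differed by 1.17 (SE 0.65) and Adm by 0.71 (SE 0.48), with adjusted p of 0.337 and 0.397. Ankrd37 was 0.57 without replicate 1 of the combination, and Adm was 0.39 without replicate 4. Vegfa, at 0.09 (SE 0.29), and the other 5 were within 0.35 of zero: Car12 -0.06, Ndrg1 -0.07, Kdm3a -0.14, Bnip3 -0.23 and Pdk1 -0.35. Each of those 5 turned positive when replicate 1 of the combination was left out, Pdk1 to 0.16 and Bnip3 to 0.32, and Vegfa turned negative (-0.13) without replicate 4. The tested members with a higher mean numbered 4 of 9, and 8 of 9 without replicates 1 and 4 of the combination. For markers of other cells limma gave 0 calls in the same comparison. Of the erythroid markers 4 of 5 were lower in every combination tumour than in every Veh_IgG tumour (1.63% of all tested genes were), with a list median of -3.35, or -1.85 without those replicates. Of the T cell markers 3 of 5 were higher in every combination tumour (1.63% of all tested genes were), with a median of 2.01, or 1.97 without them. Their level was low: the summed TPM of the 7 listed T cell markers ranged from 1.95 to 5.09 in Veh_IgG and 0.910 to 13.7 in the combination, which overlap. All 13 satellite-like models were higher in every combination tumour, with a median of 5.03, or 3.53 without replicates 1 and 4. The part of these genes in the members' values was not tested.

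**Figure D2:**
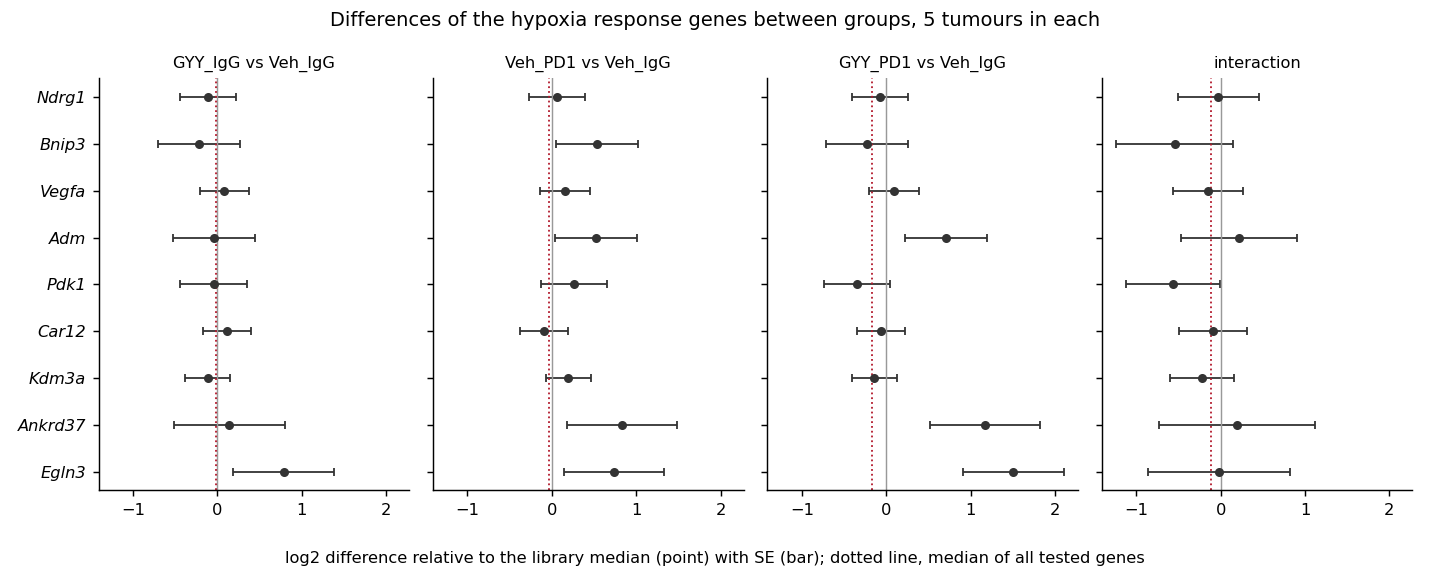
Difference of each tested gene in log2 relative to the library median (points) with its standard error (bars), for each single agent and the combination against Veh_IgG and for the interaction, 5 tumours in each group. The dotted line is the median of all 15422 tested genes; Egln3 in the combination, at 1.51, lies farthest from zero.

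Against the single agents the combination showed no called member either. Bnip3 had the lowest difference from Veh_PD1, -0.76 (SE 0.49, limma adjusted p = 0.440), and Egln3 the highest, 0.77 (SE 0.60, adjusted p = 0.496). Without replicate 1 of the combination Bnip3 was -0.22, and without replicate 4 Egln3 was 0.45. Pdk1 levels were 6.87, 19.1, 15.6, 8.78 and 9.68 TPM in Veh_PD1 and 0.226, 13.1, 10.4, 2.13 and 8.42 TPM in the combination, where replicates 1 and 4 were lowest. Against GYY_IgG the differences ran from -0.30 for Pdk1 (SE 0.39, adjusted p = 0.648) to 1.03 for Ankrd37 (SE 0.65, adjusted p = 0.464), and without replicate 1 of the combination Pdk1 was 0.20 and Ankrd37 was 0.43. The interaction asks whether the effect of GYY4137 differed with the antibody. It ran from -0.56 for Pdk1 (SE 0.56, adjusted p = 0.875) to 0.22 for Adm (SE 0.69, adjusted p = 0.931). Pdk1 was -0.058 without replicate 1 of the combination and Adm was -0.098 without replicate 4. The median over the members was -0.09, beside -0.11 over all tested genes.

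The number of members called depended on the scale. On the deposited log2 TPM, with no median subtracted, 6 members were called lower in the combination than in Veh_IgG by limma: Vegfa (-1.82), Bnip3 (-2.14), Car12 (-1.98), Kdm3a (-2.06), Ndrg1 (-1.99) and Pdk1 (-2.26). On that scale 10831 of 15422 genes were called, 69.9% of all tested genes as lower and 48 genes as higher, and the median of all tested genes was -2.09. The members' median on it was -1.98. The 6 values lay on both sides of the median of all tested genes.

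The oxygen-sensing machinery was well represented in Veh_IgG. Hif1a, the ubiquitous HIF-alpha subunit, was at 143 ± 38.4 TPM and Epas1, which encodes another HIF-alpha subunit, at 7.36 ± 3.14 TPM. Their partner Arnt was at 31.0 ± 7.18 TPM. Vhl, the adaptor that recognises hydroxylated HIF-alpha, was at 11.4 ± 1.52 TPM, and Egln1, the main HIF prolyl hydroxylase, at 49.7 ± 10.9 TPM, well above Egln3. Of 16 genes of the machinery 14 were tested and 0 were called by limma in any comparison. At an unadjusted p under 0.05 there were 4 in the combination against Veh_IgG, 4 against GYY_IgG, 2 against Veh_PD1 and 0 in the others. In the combination against Veh_IgG 1 of 14 had a higher mean (37.6% of all tested genes did), with a median of -0.28 beside -0.17 for all tested genes. Without replicates 1 and 4 of the combination 8 of 14 did, with a median of 0.0072, and 0 had an unadjusted p under 0.05. The lowest p belonged to Rbx1, a ring finger subunit of the VHL ligase, at -0.76 (SE 0.27, limma adjusted p = 0.243). Hif1an, the asparaginyl hydroxylase of HIF, at -0.59 (SE 0.23), and the prolyl hydroxylase Egln2, at -0.82 (SE 0.33), were lower in every combination tumour than in every Veh_IgG tumour, as were 1.63% of all tested genes. Their adjusted p by limma were 0.257 and 0.264. Egln1, the exception in direction, differed by 0.11 (SE 0.23), and by 0.027 without replicate 4 of the combination. Without replicate 1 of the combination Rbx1 was -0.43, Hif1an -0.38 and Egln2 -0.38.

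Of 57 other targets known for HIF, 52 were tested and 0 were called by limma in any comparison, with 0 to 5 at an unadjusted p under 0.05. In the combination against Veh_IgG 27 had a higher and 25 a lower mean, with a median of 0.01. Without replicates 1 and 4 of the combination 41 of 52 had a higher mean, with a median of 0.15. Among genes of glucose uptake and glycolysis, Slc16a3, which exports lactate, had the lowest p, with a difference of 1.48 (SE 0.49, limma adjusted p = 0.235). Its TPM were 6.12 ± 2.45 in Veh_IgG and 4.93 ± 2.96 in the combination, so here too the difference was relative to the median. Ddit4, a stress-induced inhibitor of mTOR signalling, differed by -1.12 (SE 0.43, adjusted p = 0.257), from 298 ± 122 to 65.7 ± 59.1 TPM. Among the targets listed for mitochondria and stress, Ddit4 included, the lowest limma adjusted p was 0.245. Cox4i2 of that list had the largest difference of the 52, 3.37. Its TPM were 0.639 ± 0.522 in Veh_IgG, with a lowest value of 0, and 0.653 ± 0.285 in the combination. Edn1, the vasoconstrictor endothelin, differed by -2.25 (SE 0.90) and Tfrc, the transferrin receptor, by -1.09 (SE 0.41), with adjusted p of 0.261 and 0.254. Lox, which crosslinks collagen, differed by 1.24 (SE 0.73, adjusted p = 0.352), and by 0.33 without replicate 2 of Veh_IgG. Edn1 was listed at 0 in replicate 1 of the combination, and without that library Edn1 was -1.15 and Ddit4 -0.61.

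Relatives and partners of the members, in 5 lists of 5 to 8 tested genes, gave 0 calls by limma as well, and 0 to 3 genes a list at an unadjusted p under 0.05. In the combination against Veh_IgG the 7 tested relatives of Ndrg1, Bnip3 and Kdm3a differed by -0.47 to 3.34. Their lowest limma adjusted p was 0.231, and 1 was higher in every combination tumour (1.63% of all tested genes were). Without replicates 1 and 4 of the combination 0 of the 7 had an unadjusted p under 0.05. Among receptors for Vegfa, Kdr was at 3.59 ± 1.73 TPM and Flt1 at 6.25 ± 2.63 TPM in Veh_IgG, and they differed by 0.64 (SE 0.47) and 0.38 (SE 0.33) in the combination, or by 0.20 and 0.10 without replicate 2 of Veh_IgG. Ramp2, the partner of the receptor of adrenomedullin, was at 128 ± 71.4 TPM in Veh_IgG and differed by -0.44 (SE 0.28), or by -0.22 without replicate 5 of Veh_IgG. Of the other carbonic anhydrases 7 of 14 were tested, and Car2 and Car13 differed by -0.55 (SE 0.23) and -0.95 (SE 0.40), with limma adjusted p of 0.266 and 0.274, and Car13 was -0.38 without replicate 1 of the combination. Pdk2, another kinase of pyruvate dehydrogenase, differed by -0.73 (SE 0.29, adjusted p = 0.257). The median of its list of 8 tested genes was -0.32, and 0.11 without replicates 1 and 4 of the combination. Leaving out those replicates, the genes at an unadjusted p under 0.05 by limma went from 2 to 0 in that list. Among the carbonic anhydrases they went from 3 to 1.

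The members varied together from tumour to tumour. Across the 20 tumours all 36 pairs of the 9 tested members had a positive Spearman rho of their values relative to the library median, from 0.10 to 0.84 with a median of 0.56. A permutation test with 100000 resamples, two-sided and adjusted over the 36 pairs, called 25 pairs by Spearman and 20 by Pearson. Each member's median rho with the other members lay between 0.35 (Egln3) and 0.69 (Adm), while its median rho with all tested genes lay between -0.09 and 0.02. The rho map of the members shows Adm, Pdk1, Bnip3, Vegfa and Kdm3a with the highest median rho (0.63 to 0.69) and Egln3 and Car12 with the lowest (0.35 and 0.38).

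**Figure D3:**
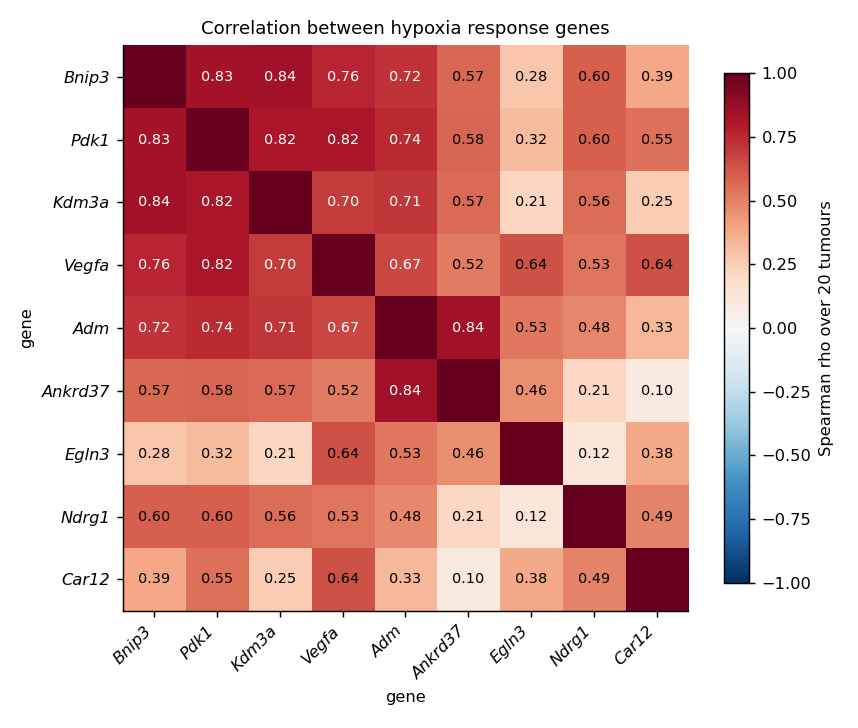
Spearman rho over 20 tumours between the 9 tested genes, on values relative to the library median; colour runs from -1 (blue) to 1 (red). Bnip3 and Kdm3a reach 0.84, and Ankrd37 and Car12 have the lowest value, 0.10.

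Bnip3 and Kdm3a had the highest correlation, with a rho of 0.844 (adjusted permutation p = 0.000180) and an r of 0.911 (adjusted permutation p = 9.00e-05). The r was 0.882 without the 2 tumours farthest from the median of Bnip3. Bnip3 and Pdk1 followed closely, with a rho of 0.830 and an r of 0.905 (adjusted permutation p = 0.000180 and 9.00e-05), and with an r of 0.901 without the 2 farthest tumours. Vegfa and Pdk1 gave a rho of 0.818 and an r of 0.864 (adjusted permutation p = 0.000180 and 0.000144), or an r of 0.780 without the 2 farthest. Ankrd37 and Adm gave a rho of 0.838 and an r of 0.670 (adjusted permutation p = 0.000180 and 0.00445). Ankrd37 and Pdk1 had opposite signs by the 2 measures, a rho of 0.582 and an r of -0.21 (adjusted permutation p = 0.0184 and 0.461), and the r was 0.851 without the 2 tumours farthest from the median of Ankrd37. Replicate 1 of the combination had the highest Ankrd37, 3.66, and the lowest Pdk1, -1.38, of the 20 tumours relative to the library median. Ufsp2 and Lrp2bp overlap the gene span of Ankrd37 on the opposite strand. Reads from any shared stretch cannot be told apart, and overlap of exons was not examined.

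With the group means subtracted, all 36 pairs stayed positive and 21 were called by Spearman in permutation tests. Without replicates 1 and 4 of the combination, 16 pairs were called over 18 tumours and the median rho was 0.51. With log2 of TPM plus 1, also relative to the library median, 12 pairs were called and 32 were positive. On the deposited log2 TPM, with no median subtracted, 25 pairs were called by Spearman and all 36 were positive. Within the 10 tumours under a satellite-like share of 20% the median rho was 0.53 and 34 pairs were positive, with 0 called by Spearman (13 at an unadjusted permutation p under 0.05) and 15 by Pearson. Within the 10 tumours over 20% the median rho was 0.43 and 33 pairs were positive, with 2 called by Spearman and 9 by Pearson. The 10 tumours over 20% were 0 of Veh_IgG, 2 of GYY_IgG, 3 of Veh_PD1 and all 5 of the combination. The boundary of 20% was chosen after seeing the data.

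The genes whose level followed the mean of the 9 members most closely were Pvr (rho 0.943), a receptor of the nectin family, and Slc2a1 (rho 0.940), the glucose transporter GLUT1. These rho values describe 20 tumours that share the same scaling, and they carry no test. Eno2, an enolase, had 0.931, Tnfrsf9, a costimulatory receptor of T cells, 0.926, and Bsg, a chaperone of lactate transporters, 0.925. Hilpda, a lipid droplet protein induced by hypoxia, had 0.913 and P4hb, the beta subunit of collagen prolyl hydroxylase, 0.910, and Mier2, Arih2 and Ier3 closed the first 10. Of these 10 genes 9 were also in the first 10 without replicates 1 and 4 of the combination. Slc2a1 was at 68.6 ± 8.96 TPM in Veh_IgG and 33.9 ± 24.9 TPM in the combination, and differed by 0.22 (SE 0.40, limma adjusted p = 0.730) relative to the library median, or by -0.043 without replicate 4 of the combination.

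Lists of genes differed in how they followed the member mean, again as a description over 20 tumours. The 17 tested genes of glucose uptake and glycolysis were all positive, with a rho from 0.21 to 0.94 and a median of 0.66. The 14 tested genes of the oxygen-sensing machinery had a median of 0.06 and ran from -0.39 to 0.80, and all tested genes had a median of -0.03. Markers of neutrophils were high where the members were high: the 5 tested markers had a rho of 0.66 to 0.80 with the member mean, and 0.55 to 0.77 without replicates 1 and 4 of the combination. The 13 satellite-like models followed it as well, with a rho of 0.56 to 0.61 over 20 tumours and of 0.72 to 0.79 without those replicates. All 8 endothelial markers were negative, from -0.63 to -0.19, and so were all 7 fibroblast markers, from -0.53 to -0.35. The summed TPM of the 6 neutrophil markers ranged from 30.1 to 539 in Veh_IgG, 81.8 to 286 in GYY_IgG, 173 to 343 in Veh_PD1 and 0.499 to 231 in the combination. That of the 8 endothelial markers ranged from 19.6 to 79.6, 24.5 to 113, 14.1 to 76.4 and 4.22 to 94.2 in the same order. That of the 7 fibroblast markers ranged from 5.05 to 196, 7.00 to 175, 4.57 to 35.1 and 1.94 to 571. None of these markers was at 0 in every library of a group. The part of these markers and of the satellite-like models in the shared variation was not tested.

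The members also differed in how they moved with the satellite-like share. The permutations shuffled all 20 tumours regardless of group, so differences between groups and variation within them are not separated. Egln3 followed it most, with a Spearman rho of 0.809 and an r of 0.809 over 20 tumours (permutation p adjusted over 9 members 0.000360 and 0.000180), and an r of 0.776 without the 2 tumours farthest from the median share. Adm (rho 0.638, r 0.688, adjusted permutation p = 0.00954 and 0.00400) and Ankrd37 (rho 0.636, r 0.594, adjusted permutation p = 0.00954 and 0.0148) were called by both measures. Their r without the 2 farthest tumours was 0.530 and 0.613. Vegfa was called by Spearman only (rho 0.597, adjusted permutation p = 0.0150), with an r of 0.428 that fell to 0.198 without the 2 farthest. The other 5 members were not called; Pdk1, for example, had a rho of 0.338 (adjusted permutation p = 0.186) and Ndrg1 0.202 (adjusted permutation p = 0.392). Egln3, Adm and Ankrd37 were also the tested members with the largest differences in the combination, the group with the largest share, and the part of the share in those differences was not tested. Within the 10 tumours under a 20% share and within the 10 over it no member was called, and none had an unadjusted permutation p under 0.05. The 10 over it held all 5 combination tumours and 0 Veh_IgG tumours. Egln3 had a rho of 0.527 and 0.236 there (adjusted permutation p = 0.700 and 0.780).

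**Figure D4:**
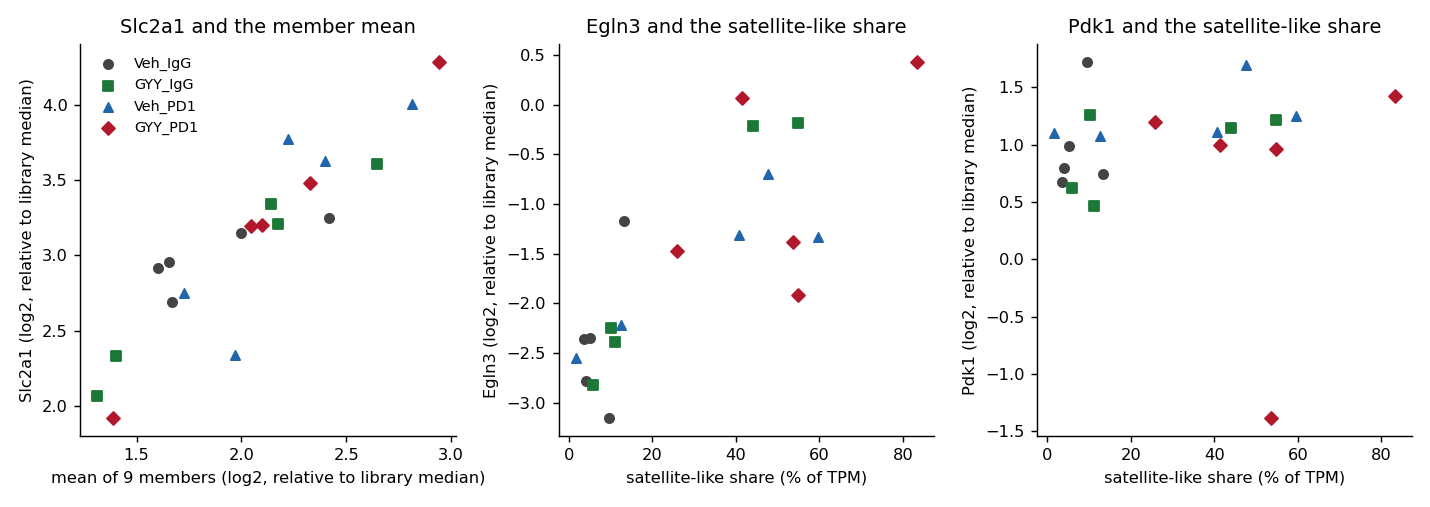
Each point is 1 of 20 tumours, coloured by group. Left, Slc2a1 against the mean of the 9 tested members, both in log2 relative to the library median (rho 0.940); middle and right, Egln3 and Pdk1 in log2 relative to the library median against the satellite-like share in percent of TPM, where Egln3 has a rho of 0.809 and Pdk1 one of 0.338 with replicate 1 of the combination at -1.38.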

How the data were processed

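The data are 1 table of 34234 genes in 20 libraries. The authors deposited log2 TPM without an added constant; each library sums to 999797 to 1000219 TPM. Per the submitters' processing notes, the tools named are HTSeq 0.11.0, Salmon 0.14.1, fastp and cutadapt, and the build is mm10, and which of them made the TPM is not given in the sources used here. TPM keep no read number, so depth is unknown and counting error cannot be stated. Libraries were grouped by the labels' titles, 1 mouse each. The members and gene lists were chosen with earlier results of these data known.

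For this work the median of the 15422 tested genes (at least 1 TPM in at least 5 libraries) was subtracted in each library. One limma model (3.58.1, R 4.3.3, trended variance) of the 4 groups over 20 libraries, with 16 residual degrees of freedom, gave 6 two-sided comparisons, adjusted by Benjamini-Hochberg over all tested genes. The model was tested on simulated data with independent normal noise for each gene. Those data held no outlying libraries and no shifts shared between genes, so the test does not cover such features. Correlations used permutation tests in Python 3.11.15. The rule for named genes takes all 10 members, Hif1a, Epas1, Arnt, Vhl, Egln1 and Smarcb1, up to 4 genes of each list with the smallest p in the combination against Veh_IgG, and the 10 genes of at least 5 TPM most like the member mean, and not all are printed. Gene positions and overlaps come from GENCODE M21 on mm10, and promoters from RefSeq. Nextera XT libraries were made from 1.0 ug of total RNA, per the labels' protocols, and do not mark the strand: Bnip3, Ndrg1 and Adm also overlap antisense or pseudogene models. Alternatives were other scales, filters, fits, library weights and libraries left out; leaving libraries out of the other gene lists was added after seeing the data.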

Additional observations from a re-analysis of the deposited data

Results flagged for a closer look

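In 5 of 36 sets of a tested member in a group of 5 tumours, 1 tumour stood far from the other 4 by Dixon's gap test on values relative to the library median; chance alone gives about 1 in 20 such sets. Bnip3 and Pdk1 were low in replicate 1 of the combination, at 2.05 and -1.38, where the nearest tumours had 4.34 and 0.96. Replicate 1 is 1 of the 2 libraries that stand apart in the number of genes detected. Ankrd37 was high in replicate 2 of Veh_IgG, at 1.72, with the nearest tumour at -0.08. Pdk1 was high in replicate 5 of Veh_PD1, at 1.69, with the nearest at 1.25. Car12 was low in replicate 5 of GYY_IgG, at 0.22, with the nearest at 1.15.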

How the results depend on the processing

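All 6 comparisons kept 0 called members under the filters, pseudocount, block, weighting and libraries left out that were run, and 5 of them with only the groups compared, where the interaction has no fit, except that 6 were called in the combination against Veh_IgG on the deposited log2 TPM; the cause was not tested. Library weights called 18 genes in all in that comparison, of which 0 were members. On the deposited scale the members' median difference was -0.60 for Veh_PD1 against Veh_IgG, -1.98, -1.12 and -1.52 for the combination against Veh_IgG, Veh_PD1 and GYY_IgG, and -0.76 for the interaction. The members' medians relative to the library median were also taken with 1 library left out at a time. They ranged from -0.12 to 0.17 for GYY_IgG and 0.15 to 0.44 for Veh_PD1 against Veh_IgG. For the combination they ranged from -0.19 to 0.31 against Veh_IgG, -0.25 to 0.13 against Veh_PD1 and -0.11 to 0.33 against GYY_IgG. For the interaction they ranged from -0.31 to 0.11, and 0 members were called throughout.

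Of 54 member differences, 26 changed sign on the deposited scale, 21 with library weights, 15 without replicates 1 and 4 of the combination, and 9, 9 and 0 with coding rescaling, log2 of TPM plus 1 and no filter. With a filter of 5 TPM 8 of 48 changed sign, and with only the groups compared 0 of 45. Of the 16 differences larger than their standard error, 11 changed sign on the deposited scale, 1 with library weights and 0 in the other settings. For the combination against Veh_IgG, the deposited scale gave Vegfa -1.82, Egln3 -0.41, Ankrd37 -0.74 and Adm -1.21. It also gave Ankrd37 -0.49 against GYY_IgG, Egln3 -0.28 against Veh_PD1, Ankrd37 -0.026 for Veh_PD1 against Veh_IgG and Adm -0.44 for the interaction. Library weights gave Bnip3 0.40, Car12 0.073, Kdm3a 0.20, Ndrg1 0.19 and Pdk1 0.19 against Veh_IgG and Pdk1 0.23 against GYY_IgG. The filter of 5 TPM gave Car12 0.082, Kdm3a 0.0044 and Ndrg1 0.073. Vegfa was -0.10 with coding rescaling and -0.32 with log2 of TPM plus 1, where the Adm interaction was -0.031 and -0.012. Without replicates 1 and 4 of the combination, Bnip3 was 0.21, Kdm3a 0.092, Ndrg1 0.13 and Pdk1 0.064 against Veh_IgG, Pdk1 0.11 against GYY_IgG, and the Adm interaction -0.11.

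With 1 library left out at a time, 86 of 1080 member differences changed sign, and not all are printed here. For the combination against Veh_IgG, signs changed for Bnip3 (-0.46 to 0.32), Kdm3a (-0.27 to 0.12) and Car12 (-0.27 to 0.18). They also changed there for Ndrg1 (-0.20 to 0.19), Pdk1 (-0.54 to 0.16) and Vegfa (-0.13 to 0.41). Pdk1 against GYY_IgG ranged from -0.50 to 0.20, the Adm interaction from -0.10 to 0.58, Bnip3 in GYY_IgG against Veh_IgG from -0.45 to 0.083 and Car12 in Veh_PD1 against Veh_IgG from -0.17 to 0.014. Egln3 in the combination stayed between 1.19 and 1.81.

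By Spearman 25 of 36 pairs were called over all 20 libraries. Each setting was counted over the same 36 pairs, not over those 25 alone. The count was 25 on the deposited log2 TPM, 24 with coding rescaling and 21 with group means subtracted. It was 12 with log2 of TPM plus 1 and 16 without replicates 1 and 4 of the combination. Within the 10 libraries under and the 10 over a 20% satellite-like share it was 0 and 2, and 15 and 9 by Pearson. That division was added after seeing the data and leaves 10 libraries for each test.

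The replicate numbers did not pair the mice: 30 same-numbered pairs had correlations from -0.085 to 0.109, 1 of them over 0.1. With the replicate number as a block, Egln3 in the combination was 1.51 (limma adjusted p = 0.218), 0 members were called and 0 signs changed.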
